A study of Mus musculus with 2 samples.

Results

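The genes described here carry the insulin signal in the liver: the receptor Insr, its substrates Irs1 and Irs2, the adaptors Grb10 and Grb14, the lipid kinase subunit Pik3r1, the kinases Akt1 and Akt2, and the transcription factors Foxo1 and Foxo3. They were chosen by name, and every probe whose transcript accession maps to them was used, which gave 16 probes for 10 of 10 genes. Both arrays measured 9 of these genes well above background, among 13881 genes in all, and Grb10 was so on the CREBH-Tg array only. The study compared liver RNA of CREBH-Tg mice and WT mice, both on the C57B6J background and both fed the HFHS diet for 12 weeks. CREBH-Tg mice carry a human cDNA for the active form of CREBH, expressed mainly but not solely in the liver. WT mice carry no transgene. The livers of a genotype were pooled and run on 1 one-colour Agilent array, so there were 2 arrays and no replicates. The number, age and sex of the pooled animals are not given in the sources used here. Differences are therefore given by size alone, with no test and no measure of the spread between mice.

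Insulin binds its receptor, a tyrosine kinase at the cell surface, which phosphorylates the IRS proteins. These recruit phosphoinositide 3-kinase, whose lipid product brings AKT kinases to the membrane. Active AKT phosphorylates FoxO transcription factors and so keeps them out of the nucleus. In the fasted liver FoxO1 is nuclear and raises genes of glucose production and, as feedback, Irs2 and Insr. These steps run largely through protein phosphorylation, which an mRNA array does not measure.

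The members differed little in mRNA level between the pools. Foxo1 and Pik3r1 were lower in CREBH-Tg liver, by 1.19-fold and 1.30-fold. Irs2, Akt1, Akt2 and Grb14 were slightly higher, by 1.19-fold, 1.13-fold, 1.13-fold and 1.11-fold. Insr, Irs1 and Foxo3 lay within the range of spot noise, which is the scatter of log2 ratios among spots of 1 probe on these arrays. Of the 9 measured members, 0 were at least 1.2-fold higher, where 11.1% of all genes were, and 1 was at least 1.2-fold lower, where 9.93% were. At 1.5-fold, 0 were higher and 0 lower, with 2.33% and 2.23% of all genes past that size. At 2-fold the counts were 0 and 0, with 0.663% and 0.670% of all genes past it.

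Signals are given as log2 of the processed intensity relative to each array's 75th percentile, and a gene's value is that of its brightest probe well above background on both arrays. Intensity at the 75th percentile was 309 on the CREBH-Tg array and 333 on the WT array, 58.34% and 55.41% of spots were well above background, and 0 were saturated. Spot noise was taken from probes spotted at least 5 times. With genes split by signal into 3 classes of the same size, its 95% range was a log2 ratio of 0.40 for dim genes, 0.17 for the middle class and 0.095 for bright genes. Differences between mice, between pools or between labelling reactions come on top of it. Signals of different probes are not set against each other, because probes differ in how well they hybridise.

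**Figure D1:**
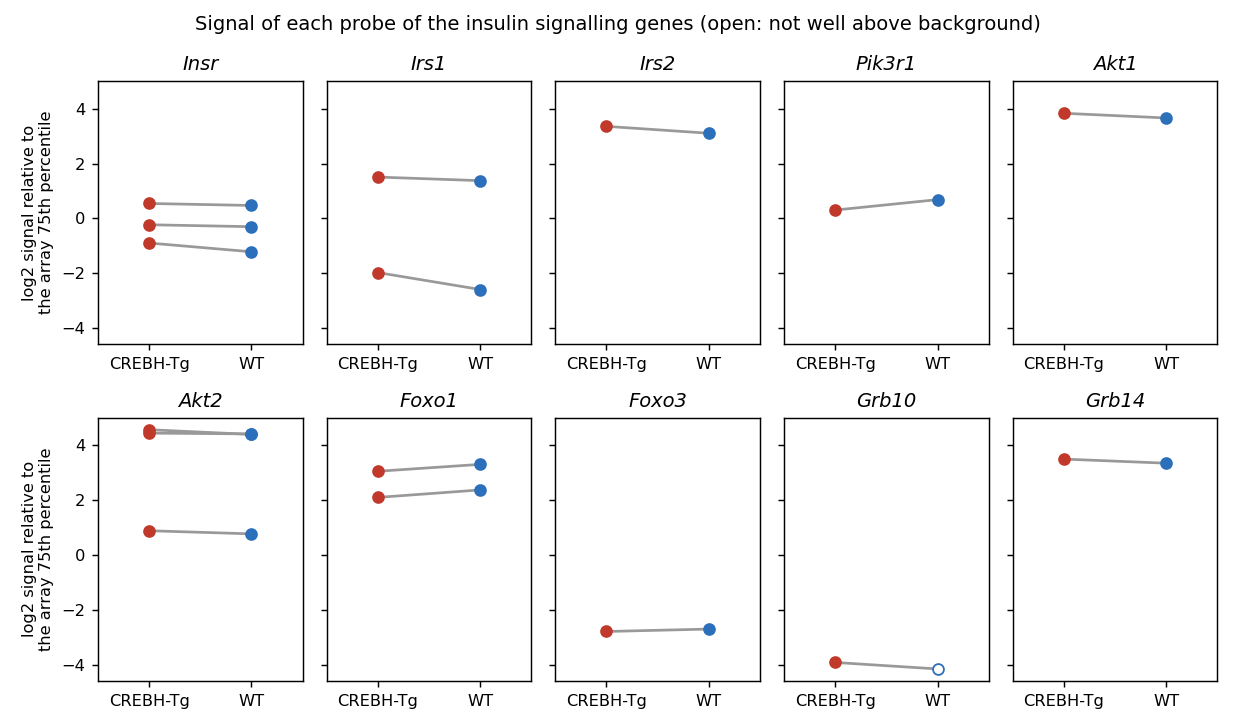
Log2 signal of each probe, relative to the array's 75th percentile, on the CREBH-Tg array (red, left) and the WT array (blue, right). Lines join the 2 values of a probe, and the open circle marks the signal not well above background. The lines of Foxo1, Pik3r1 and, by little, Foxo3 are lower at CREBH-Tg, and those of the other members are higher there.

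The insulin receptor gene Insr had 3 probes, all above background on both arrays. The brightest had a log2 signal of 0.54 in CREBH-Tg liver and 0.47 in WT liver, a log2 ratio of 0.07 (CREBH-Tg over WT). The other two had log2 ratios of 0.07 and 0.32. All 3 lay above 0, and each was within the range of spot noise for its class. The gene's log2 ratio stayed between 0.04 and 0.16 over the ways of processing tried.

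Irs1 and Irs2 encode the main receptor substrates, of which Irs2 is known to be lowered by insulin and raised on fasting in liver. Irs2 had a log2 signal of 3.35 in CREBH-Tg liver and 3.10 in WT liver, a log2 ratio of 0.25, beyond the 0.095 of spot noise in its class. Of the genes in the brightest class, 8.28% were as high or higher by log2 ratio. Irs1 had 2 probes that differed in size but not in direction. Its brighter probe had 1.51 in CREBH-Tg liver and 1.38 in WT liver, a log2 ratio of 0.13 and within the 0.17 of spot noise. Its dimmer probe had -1.97 in CREBH-Tg liver and -2.59 in WT liver, a log2 ratio of 0.62, beyond the 0.40 of its class. With the mean of both probes, Irs1 would be at 0.37 instead of 0.13, so the choice of probe sets its size.

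The starts of Irs1 and Irs2 are shown because FoxO proteins are known to act on Irs2 through an insulin response element near its start. Sequences are from RefSeq on the build GRCm38.p6, and cover 250 bases before to 50 after the annotated start. Of the 10 members, 9 had an entry there, with 15 starts in all. Motifs were searched as exact letters on both strands. They were the FoxO site GTAAACA, the core CAAAACA of the insulin response element, the CREB-type site TGACGTCA and its part TGACG, called a half-site below, and the E-box CACGTG. Matches are in capitals.
Irs1, chr1:82291390-82291689, minus strand: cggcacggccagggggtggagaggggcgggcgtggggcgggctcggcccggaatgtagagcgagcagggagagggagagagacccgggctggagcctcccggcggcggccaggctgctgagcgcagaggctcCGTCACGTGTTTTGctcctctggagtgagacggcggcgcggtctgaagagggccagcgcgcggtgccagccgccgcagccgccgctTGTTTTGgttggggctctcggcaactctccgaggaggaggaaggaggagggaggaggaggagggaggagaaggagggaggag
Irs2, chr8:11008880-11009179, minus strand: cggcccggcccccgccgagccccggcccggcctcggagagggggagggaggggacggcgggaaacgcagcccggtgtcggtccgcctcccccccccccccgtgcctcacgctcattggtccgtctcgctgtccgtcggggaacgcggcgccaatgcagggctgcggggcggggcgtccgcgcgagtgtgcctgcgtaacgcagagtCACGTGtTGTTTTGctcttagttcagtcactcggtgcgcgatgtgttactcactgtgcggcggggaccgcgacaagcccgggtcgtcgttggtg
Both starts hold the core CAAAACA, read as TGTTTTG on the strand shown, and the E-box. In Irs2 the E-box begins at base -44 and the core at -37, counted from the annotated start. In Irs1 the core begins at -111 and again at -32, and the E-box at -115 shares letters with the first core and with a half-site at -118. Among the 15 member starts the core was in 2 and the E-box in 2, in each case those of Irs1 and Irs2, against 6.28% and 7.15% of all 32851 starts in the table. A match of letters describes the sequence and does not show that a factor binds there.

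Pik3r1 encodes the p85 alpha regulatory subunit, which holds and stabilises the catalytic subunit of phosphoinositide 3-kinase and docks it on IRS proteins. Its 1 probe had a log2 signal of 0.30 in CREBH-Tg liver and 0.68 in WT liver. The log2 ratio was -0.38, the farthest from 0 among the members by gene value and beyond the 0.17 of spot noise in its class. Of the genes in the middle class, 2.49% were as low or lower. The other regulatory subunit genes, named after their values were seen, lay closer to 0: the log2 ratio of Pik3r2 was 0.07 and that of Pik3r3 was -0.07. Pik3r1 has an outer start, used by the full-length form, and an inner start, used by shorter forms that lack its N-terminal part. Both are shown because 1 probe cannot say which of these transcripts differed.
Pik3r1, chr13:101768168-101768467, minus strand: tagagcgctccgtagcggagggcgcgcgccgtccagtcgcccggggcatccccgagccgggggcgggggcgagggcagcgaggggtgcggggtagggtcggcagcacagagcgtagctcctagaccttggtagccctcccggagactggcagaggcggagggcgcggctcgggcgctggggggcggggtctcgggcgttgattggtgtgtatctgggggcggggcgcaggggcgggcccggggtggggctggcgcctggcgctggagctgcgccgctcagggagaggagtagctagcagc
Pik3r1, chr13:101692581-101692880, minus strand: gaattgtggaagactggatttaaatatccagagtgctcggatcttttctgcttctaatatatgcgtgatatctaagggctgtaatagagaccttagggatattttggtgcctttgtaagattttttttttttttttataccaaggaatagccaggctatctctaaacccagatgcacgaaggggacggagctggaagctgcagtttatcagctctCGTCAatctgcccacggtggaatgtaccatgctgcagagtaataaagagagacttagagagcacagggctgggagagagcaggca
The outer start is rich in G and C, at 75.7%, and holds none of the motifs. The inner start has 43.7% and holds a CREB-type half-site at base -35. Such a half-site was in 6 of the 15 member starts, against 20.8% of all starts. The half-site, like the whole CREB-type site and the E-box, holds a CG pair. Member starts had a median of 28 CG pairs, against 7 over all starts. The shares over all starts are therefore not a background of like sequence, and no enrichment can be read from them. The whole CREB-type site was in 0 of the 15, against 1.79% of all.

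Akt1 and Akt2 encode the kinases that relay the signal, Akt2 being the form most tied to glucose control in liver. Akt1 was spotted in 2 places, with log2 ratios of 0.19 and 0.16. Its mean log2 signal was 3.83 in CREBH-Tg liver and 3.66 in WT liver, a log2 ratio of 0.17. Akt2 had 3 probes, and the probe used had 4.57 in CREBH-Tg liver and 4.40 in WT liver, also a log2 ratio of 0.17. The other two Akt2 probes had log2 ratios of 0.03 and 0.11, both within spot noise. All 3 Akt2 probes lay above 0, and 1 of them was beyond spot noise. The probe at 0.03 was nearly as bright, with 4.45 in CREBH-Tg liver and 4.42 in WT liver, so the gene's 0.17 rests on a near tie. That probe was at -0.04 under loess and slightly below 0 under 3 other settings.

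Foxo1 and Foxo3 encode the transcription factors that AKT inhibits. Foxo1 had 2 probes that gave nearly the same ratio. The brighter had a log2 signal of 3.05 in CREBH-Tg liver and 3.31 in WT liver, a log2 ratio of -0.25. The dimmer had 2.10 in CREBH-Tg liver and 2.38 in WT liver, a log2 ratio of -0.27. Both were lower in the CREBH-Tg pool by more than the 0.095 of spot noise, and 4.32% of genes in the brightest class were as low or lower. Foxo3 was dim, with -2.78 in CREBH-Tg liver and -2.70 in WT liver. Its log2 ratio of -0.09 was well inside the 0.40 of spot noise. Foxo4, also dim and named after its value was seen, had a log2 ratio of 0.17. The start of Foxo1 is shown as that of the member whose separate probes were lower together.
Foxo1, chr3:52268087-52268386, plus strand: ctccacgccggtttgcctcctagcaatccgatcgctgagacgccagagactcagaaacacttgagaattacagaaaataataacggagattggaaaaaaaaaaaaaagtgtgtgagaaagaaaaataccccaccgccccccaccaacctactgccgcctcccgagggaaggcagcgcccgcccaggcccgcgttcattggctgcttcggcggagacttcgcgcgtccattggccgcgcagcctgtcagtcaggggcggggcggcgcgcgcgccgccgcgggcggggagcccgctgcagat
It has 31 CG pairs in 300 bases, against a median of 7 over all starts, and holds none of the motifs. The FoxO site was in 1 of the 15 member starts, an outer start of Akt1, against 3.65% of all.

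Grb10 and Grb14 encode adaptors that bind the active receptor and restrain its kinase, and Grb14 is known to do so in liver. Grb14 had a log2 signal of 3.50 in CREBH-Tg liver and 3.35 in WT liver, a log2 ratio of 0.15, just beyond spot noise. Under normexp, another background correction, it was 0.05 and within spot noise. Grb10, an imprinted gene of low expression in adult liver, had -3.91 in CREBH-Tg liver, and its probe was not well above background in WT liver, at -4.15. The dimmest WT probe counted as well above background had -4.13. The Grb10 signal in CREBH-Tg liver was 1.16-fold above that level, close to the background of both arrays. Its probe's log2 ratio of 0.24 lay within the 0.40 of spot noise in its class, so it sets no lower bound on a difference. Grb7, the third gene of this family and named after its value was seen, had a log2 ratio of 0.13.

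**Figure D2:**
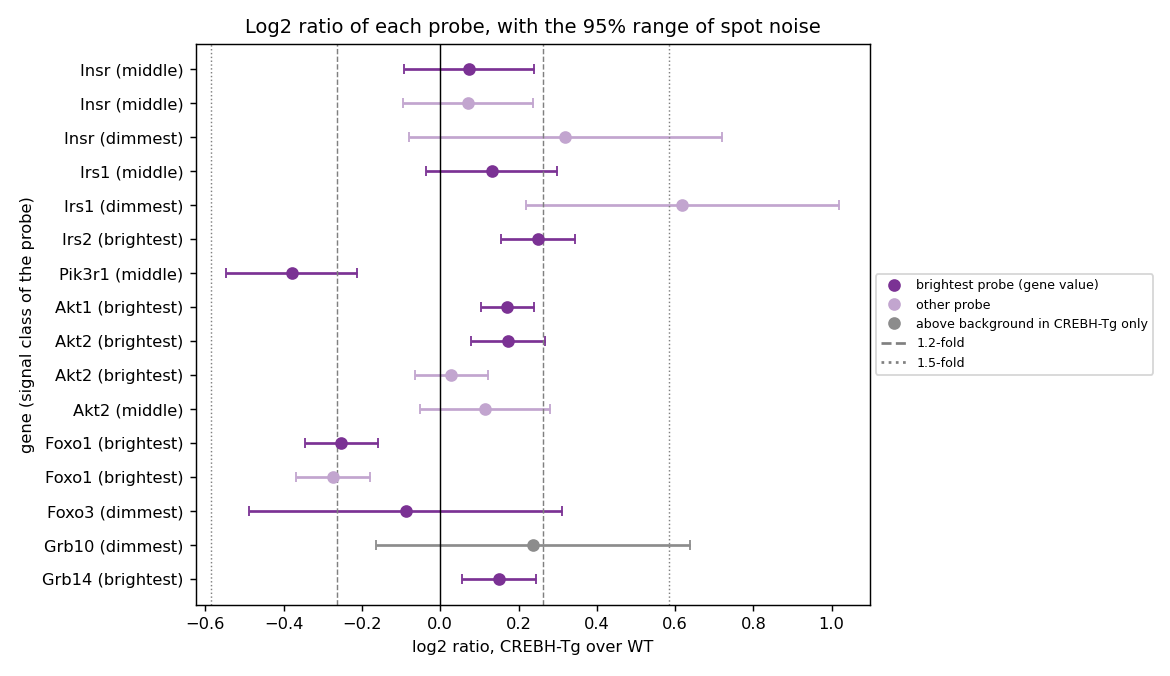
Log2 ratio of CREBH-Tg over WT for each of the 16 probes, with bars for the 95% range of spot noise of the probe's signal class, narrowed for the 2 spots of Akt1. Both Foxo1 probes and the Pik3r1 probe lie below 0 with bars clear of it, and the probes of Insr, Irs1 and Akt2 lie above 0 with most bars crossing it.

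By spot noise, 4 of the 9 measured members were higher and 2 lower, where 21.0% and 13.2% of all genes were. The range is narrower for bright genes, and 5 of the 9 members were in the brightest class. There, 4 of 5 members were higher and 1 of 5 lower, against 36.1% and 15.5% of all genes of the class. By size, 0 of these 5 were 1.2-fold higher and 0 were 1.2-fold lower, against 7.52% and 4.02% of the class. The 3 middle-class members were Insr, Irs1 and Pik3r1, and 1 of these was lower, against 13.5% of that class. The median log2 ratio of the 9 members was 0.13, against 0.03 over all genes and 0.05 over the brightest class. Over the ways of processing tried it ran from 0.10 to 0.22. Creb3l3, the mouse gene for CREBH, had a log2 ratio of -0.0041, and its probe is for the mouse transcript, so it is no check of the human transgene.

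**Figure D3:**
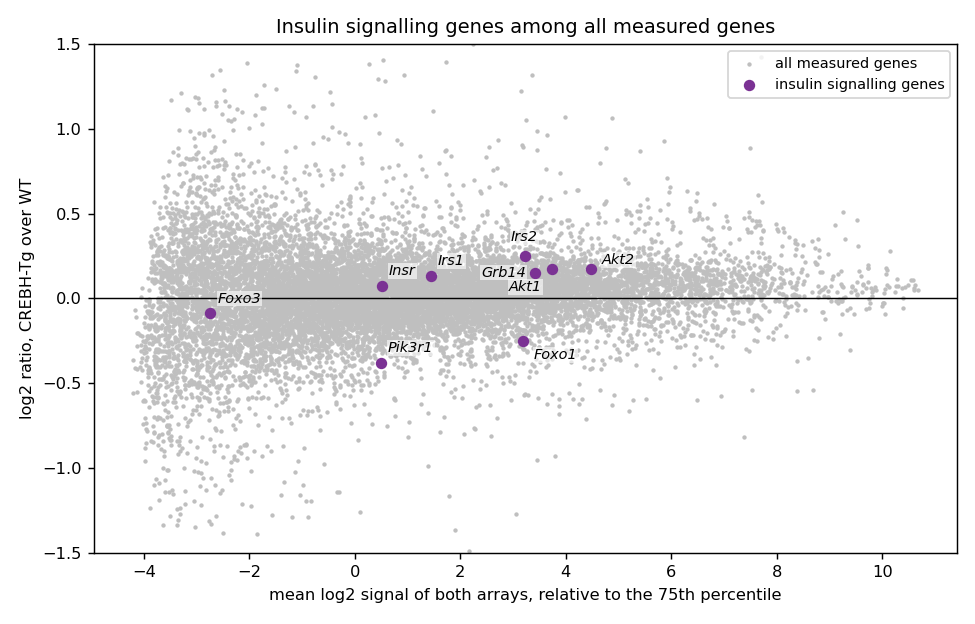
Log2 ratio of CREBH-Tg over WT against the mean log2 signal of both arrays, for the 9 measured members (purple) and all 13881 genes (grey). The axis ends at a log2 ratio of 1.5 on either side, which leaves out 67 genes. Pik3r1 and Foxo1 lie on the lower side of the genes of like signal, with 2.49% and 4.32% of their signal classes as low or lower. The other members lie within the bulk or near its upper side.

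The rest of the receptor-proximal genes, a list of 15 of which 13 were measured, had a median log2 ratio of 0.01. At least 1.2-fold higher was 1, Sh2b2, an adaptor of the receptor, at a log2 ratio of 0.30. At least 1.2-fold lower was 1, Sos1, which activates RAS, at -0.44. Of all genes, 11.1% were higher and 9.93% lower by that size. Cbl, a ubiquitin ligase, was at -0.18, and Igf1r, the receptor for IGF1, at 0.16. All 4 of these named genes were dim, and Sos1 alone of them lay beyond its spot noise. Sos1 was within that range under median scaling and under quantile normalization, at -0.35 in each, and under normexp, at -0.13. Under normexp, and under the stricter filter on dim probes, which leaves Sos1 out, no gene of the list was 1.2-fold lower.

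The other PI3K, AKT and mTOR genes, 25 of 26 measured, had a median log2 ratio of 0.04. By 1.2-fold or more 2 were higher and 1 lower, against 11.1% and 9.93% of all genes. Under median scaling the counts were 5 and 0, and under quantile normalization 4 and 1. With the 75th percentile over probes above background they were 2 and 3. Sgk1, an AKT-related kinase that responds to glucocorticoids as well as insulin, had a log2 signal of 3.18 in CREBH-Tg liver and 2.52 in WT liver. Its log2 ratio of 0.67, 1.59-fold, was the one of this list past 1.5-fold. Prkcz, an atypical protein kinase C, had 3 probes with log2 ratios of 0.33 to 0.49. Appl1, an adaptor of AKT at the edge of 1.2-fold, was at -0.26, and Pik3ca, a catalytic subunit of phosphoinositide 3-kinase, at 0.26, both dim and within spot noise.

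The inhibitors of the pathway, 17 of 17 measured, had a median log2 ratio of -0.05. By 1.2-fold or more 1 was higher and 1 lower, against 11.1% and 9.93% of all genes. Under median scaling the counts were 4 and 0. Trib3, a pseudokinase reported to bind AKT and known as a gene of the integrated stress response, had 2.39 in CREBH-Tg liver and 1.72 in WT liver. Its log2 ratio was 0.67, or 1.59-fold. Prkce, a protein kinase C linked to lipid-induced insulin resistance, was at -0.32, dim and within spot noise, and at 0.01 under normexp. Pdk4, which shuts pyruvate dehydrogenase and does not act on the insulin signal itself, was at 0.26, and Phlpp1, an AKT phosphatase, at 0.21. Pdk4 and Trib1, the latter named for this alone, are also in the list of FoxO1-linked genes below.

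Genes listed as linked to FoxO1 or lowered by insulin in liver, 21 of 21 measured, had a median log2 ratio of 0.06. By 1.2-fold or more 1 was higher and 3 were lower. Of all genes, 11.1% were higher and 9.93% lower by that size. Under median scaling the counts in the list were 4 and 3. Beyond spot noise, 4 were higher and 4 lower, against 21.0% and 13.2% of all genes. The highest was Gadd45a, a stress and growth arrest gene, at 0.39. The 3 lower genes were Cdkn1a, a cell cycle inhibitor, at -0.45, Ppargc1a, a coactivator of glucose production, at -0.42, and the transcriptional coregulator Cited2 at -0.41. Cdkn1a was dim and just beyond the 0.40 of spot noise. It was within that range under median scaling, at -0.36, and under normexp, at -0.32. Ppargc1a and Cited2 each had 2 probes, lower in both. Of 3 classical FoxO1 targets named after their values were seen, Igfbp1 had 7.43 in CREBH-Tg liver and 7.43 in WT liver. Pck1 and G6pc, enzymes of glucose production, had log2 ratios of 0.25 and 0.22, both beyond spot noise. In this list 15 log2 ratios lay above 0 and 6 below. Over all 13881 genes 7801 lay above 0, and in the brightest class 3059 of 4627 did. The median of the list was -0.0060 under quantile normalization and -0.0085 under loess. A link of these values to the Foxo1 signal was not tested.

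The list of genes that insulin induces in liver, 15 of 15 measured, had a median log2 ratio of -0.34. Of these genes 13 were below 0 and 2 above. At least 1.2-fold lower were 10 and at least 1.2-fold higher was 1, and 12 were lower by more than spot noise. Of all genes, 9.93% were lower and 11.1% higher by 1.2-fold, and 13.2% lower by more than spot noise. Most of these are genes of fatty acid synthesis, and their direction was known from earlier results of the same arrays. Thrsp, a lipogenic regulator, had 6.98 in CREBH-Tg liver and 7.80 in WT liver, a log2 ratio of -0.82. Fasn, fatty acid synthase, was at -0.50. Srebf1, which encodes the transcription factor SREBP1 and was named after its value was seen, was at -0.34. Egr1, an immediate early gene, and Pnpla2, a lipase gene named after its value was seen, went the other way. Their log2 ratios were 0.49 and 0.12, both beyond spot noise. Pnpla2 is known as a gene that insulin lowers, so its place in this list is in doubt. All settings tried kept the median of the list below 0, between -0.40 and -0.25.

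**Figure D4:**
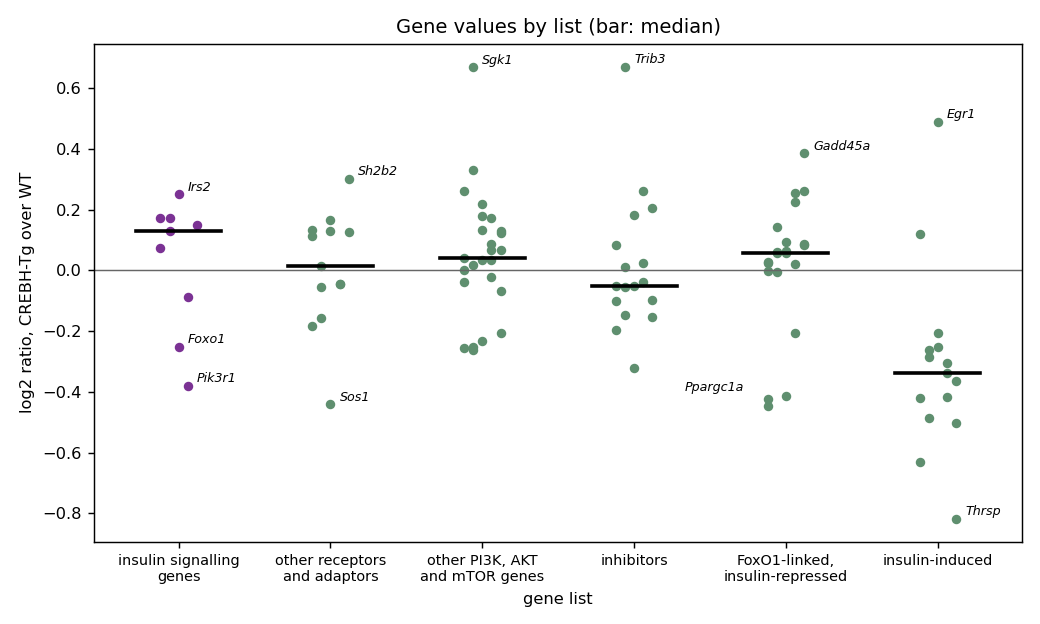
Log2 ratio of CREBH-Tg over WT for each measured gene of the insulin signalling genes and of 5 lists around them, with black bars for medians. Points at the same height scatter sideways only to be seen apart. Pdk4 and Trib1 are in both the inhibitor list and the FoxO1-linked list. The insulin-induced genes have their median at -0.34, the other 4 lists between -0.05 and 0.06, and the insulin signalling genes at 0.13.

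The tissue label was set beside 8 hepatocyte markers, all well above background on both arrays. Their log2 signals ran from 5.05 (Cps1) to 10.67 (Alb) in CREBH-Tg liver and from 5.16 to 10.59 in WT liver. Insulin signalling genes are expressed in other cell types too, and in bulk RNA a change in cell number and in RNA per cell cannot be told apart. Markers of those types were summed as signal scaled to the array's 75th percentile, and each sum is led by its brightest probes. Adipocyte markers, 6 of 8 measured with Lep and Plin1 not above background on both arrays, summed to 16.4 in CREBH-Tg liver and 13.4 in WT liver. Among them the dim Adipoq and Retn were 4.61-fold and 2.94-fold higher, and Slc2a4 had a log2 ratio of -0.27. Lymphocyte markers (6 of 7) summed to 128 in CREBH-Tg liver and 103 in WT liver. Most of that sum and of its difference was Cd4, with a log2 signal of 6.83 in CREBH-Tg liver and 6.49 in WT liver. The T cell marker Cd3e had 2.66 in CREBH-Tg liver and 2.57 in WT liver, and the hepatocyte marker Tat had 6.76 and 6.84. The sum thus follows the Cd4 probe and cannot be read as lymphocyte content. Whether that probe reports T cells was not tested. The median log2 ratio of the 6 markers was 0.19, and Cd3d, dim, was 2.14-fold higher. Stellate cell markers (8 of 8) summed to 80.2 in CREBH-Tg liver and 76.1 in WT liver, with all 8 log2 ratios above 0 and a median of 0.24. Endothelial markers (6 of 6) summed to 115 in CREBH-Tg liver and 105 in WT liver, with a median log2 ratio of 0.05. Macrophage markers (7 of 8) summed to 102 in CREBH-Tg liver and 115 in WT liver, with a median log2 ratio of -0.07. Of bile duct markers 4 of 5 were measured, of islet markers 2 of 6 and of skeletal muscle markers 1 of 6, with median log2 ratios of -0.14, -0.16 and 0.19. Their part in the values above was not tested.

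**Figure D5:**
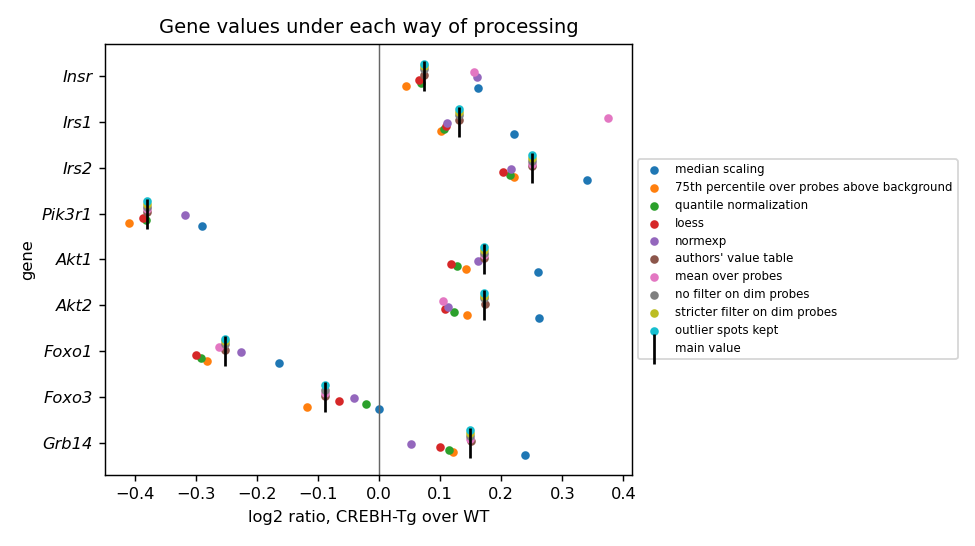
Log2 ratio of CREBH-Tg over WT for each of the 9 measured members as reported (black bar) and under 10 other ways of processing (coloured points), 9 for Foxo3, which the stricter filter on dim probes leaves out. Foxo1 and Pik3r1 stay below 0 and Insr, Irs1, Irs2, Akt1, Akt2 and Grb14 above 0 under each, and Foxo3 reaches 0.00053 under median scaling.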

How the data were processed

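Liver RNA pooled by genotype was measured on 2 one-colour arrays lying on 1 slide. Spots were quantified with Agilent Feature Extraction 10.10.1.1, with annotation on mm9, per the file headers. The deposited processed intensity is linear; background and spatial trend had been removed within an array, per the file headers, with no scaling of 1 array to the other. The authors' value table holds the same intensity times 1 constant per array (2.68 for CREBH-Tg, 2.59 for WT), with medians of 81 and 89.8. How these constants were set is not stated in the labels or headers.

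Processed signals were put on the log2 scale, and the 75th percentile of an array's non-control spots was subtracted. Control spots and 300 outlier spots were left out, and spots of 1 probe averaged. A probe counted as above background when over 50% of its spots were. Unversioned transcript accessions were looked up in RefSeq's genes of GRCm38.p6, for names alone, which named 27233 of 55677 probes. The probes of a gene spanned a median of 0.13 in log2 ratio, over 3376 genes with several measured probes.

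No test was run, because each genotype has 1 array, and the number of arrays limits the precision. The members, gene lists and settings were chosen with earlier results of these data known. In each list, genes at least 1.5-fold apart were named, and otherwise the farthest from 0 up to 4. Genes outside this rule are said to be so. A gene that the rule names is not reported here. The averaging of spots and the choice of a gene's probe were tested on simulated data. The tools were Python 3.11.15, numpy 2.4.6, pandas 2.3.3, matplotlib 3.10.9, R 4.3.3 and limma 3.58.1. The alternatives were other scalings (median, 75th percentile over probes above background, quantile, loess with a span of 0.3), normexp with an offset of 50 on the deposited median spot and background intensity, the authors' value table, the mean over probes, other filters on dim probes, and outlier spots kept.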

Additional observations from a re-analysis of the deposited data

How the results depend on the processing

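By gene value, each of Foxo1, Pik3r1, Irs2, Akt1 and Akt2 kept its direction and stayed beyond the spot noise of the values as reported under all 10 alternatives. Their log2 ratios were -0.30 to -0.16, -0.41 to -0.29, 0.20 to 0.34, 0.12 to 0.26 and 0.11 to 0.26. For Akt2 this rests on the choice of probe. Its nearly as bright probe was at 0.03 as reported, within spot noise, and at -0.04 under loess. Irs1 ran from 0.10 to 0.37, Grb14 from 0.05 to 0.24 and Insr from 0.04 to 0.16, and the dim Foxo3 from -0.12 to 0.00053, its 1 value above 0 coming from median scaling. Members at least 1.2-fold higher numbered 1 under median scaling and 1 with the mean over probes, in place of 0. Members at least 1.2-fold lower numbered 2 under quantile normalization, 2 under loess and 2 with the 75th percentile over probes above background, in place of 1. The added genes were Irs2 under median scaling, Irs1 with the mean over probes and Foxo1 in the other three. Counts over all genes fell under normexp and the stricter filter and grew without a filter. At 1.2-fold they were 1599, 1107 and 8727, against 2914. At 1.5-fold they were 224, 166 and 2756, against 632, and at 2-fold 58, 40 and 1387, against 185. The share of genes that were higher among those 1.2-fold apart was 52.7%, and 76.5% under median scaling, which adds 0.089 to every log2 ratio. The same share was 36.5% without a filter on dim probes. Among genes 1.5-fold apart it was 51.1%, and 67.2% under median scaling, 63.4% under normexp and 64.5% with the stricter filter. Among genes 2-fold apart it was 49.7%, and 59.9%, 72.4% and 72.5% under the same settings. Among the gene lists, those 1.2-fold higher under median scaling were 5 of the PI3K, AKT and mTOR genes (2 as reported), 4 of the inhibitors (1) and 4 of the FoxO1-linked genes (1, and 0 under normexp). Those 1.2-fold lower ran from 0 to 3 for PI3K, AKT and mTOR genes and from 0 to 1 for inhibitors and for receptors and adaptors, and from 7 to 12 for insulin-induced genes. The median ran from -0.0085 to 0.15 for FoxO1-linked genes and from -0.09 to 0.04 for inhibitors. For the other receptors and adaptors it ran from -0.03 to 0.10. No paired analysis was possible because each genotype has 1 array.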
